A study of Mus musculus with 6 samples.

Results

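The tissue kallikrein genes Klk1, Klk1b3, Klk1b4 and Klk1b5 were examined in RNA-seq read counts from pancreatic islets of 6 male mice. They are 4 of the 11106 genes listed, taken by symbol because earlier results of these same counts had shown them high in one group, so their knockout against floxed values are given as a description, and nothing is read from tests on them. In 3 mice (knockout 11, 12 and 13) both copies of Ern1, the gene of the endoplasmic reticulum stress sensor IRE1α, were floxed and the VE-cadherin promoter, an endothelial promoter, drove a tamoxifen-inducible Cre (Cre-ERT2), so deletion was directed to endothelial cells of the whole body. The 3 littermates (floxed 8, 18 and 19) carried the floxed Ern1 alleles without that Cre. All 6 received 2 mg tamoxifen on each of 5 days at 4 weeks of age. From 8 weeks of age all 6 were kept for 16 weeks on food that drew 60% of its calories from fat. The islet libraries were made to ask how IRE1α of endothelial cells bears on the growth of vessels within islets. Each library carries its own mouse number.

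Tissue kallikreins are secreted serine proteases, named after the Greek word for the pancreas. Klk1 encodes the tissue kallikrein proper, which cuts kininogen to release kinins, peptides that act on bradykinin receptors to widen vessels and raise their permeability. In the pancreas it is made by the acinar cells, alongside the digestive enzymes. The mouse carries many further copies named Klk1b, best known from the submandibular gland. Klk1b3, Klk1b4 and Klk1b5 encode such glandular kallikreins.

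The 6 libraries held between 18470720 and 18957444 counts, similar depths, and 11080 of the 11106 genes passed a filter on low counts. Ern1, the targeted gene, stood at 41.9, 36.0 and 46.8 CPM (counts scaled to a common library size with TMM factors) in mice 11, 12 and 13 of the knockout group. It stood at 30.1, 44.6 and 46.0 CPM in mice 8, 18 and 19 of the floxed group, so the groups overlapped (log2 fold change 0.05, SE 0.17, edgeR adjusted p = 0.920). Counts over the whole gene in all islet cells check the genotype labels little.

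The 4 genes are neighbours on the plus strand of chromosome 7 (GENCODE annotation of GRCm38, the assembly of mm10). Klk1b3 lies at chr7:44198191-44202352, Klk1b4 at chr7:44207435-44211754, Klk1b5 at chr7:44215945-44220703 and Klk1 at chr7:44225360-44229618. Each has 5 exons in its main transcript, and together they span 31.4 kb, with gaps of 4190 to 5082 bases between them. They form one end of a run of 14 protein-coding Klk1 and Klk1b genes and 10 pseudogenes over 287 kb, of which 6 coding genes had values here, the other 2 being Klk1b11 and Klk1b24. The annotated body of Gm10109, a pseudogene on the opposite strand, overlaps that of Klk1, but no annotated exon of another gene overlaps an exon of the main transcripts of the 4 genes.

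**Figure D1:**
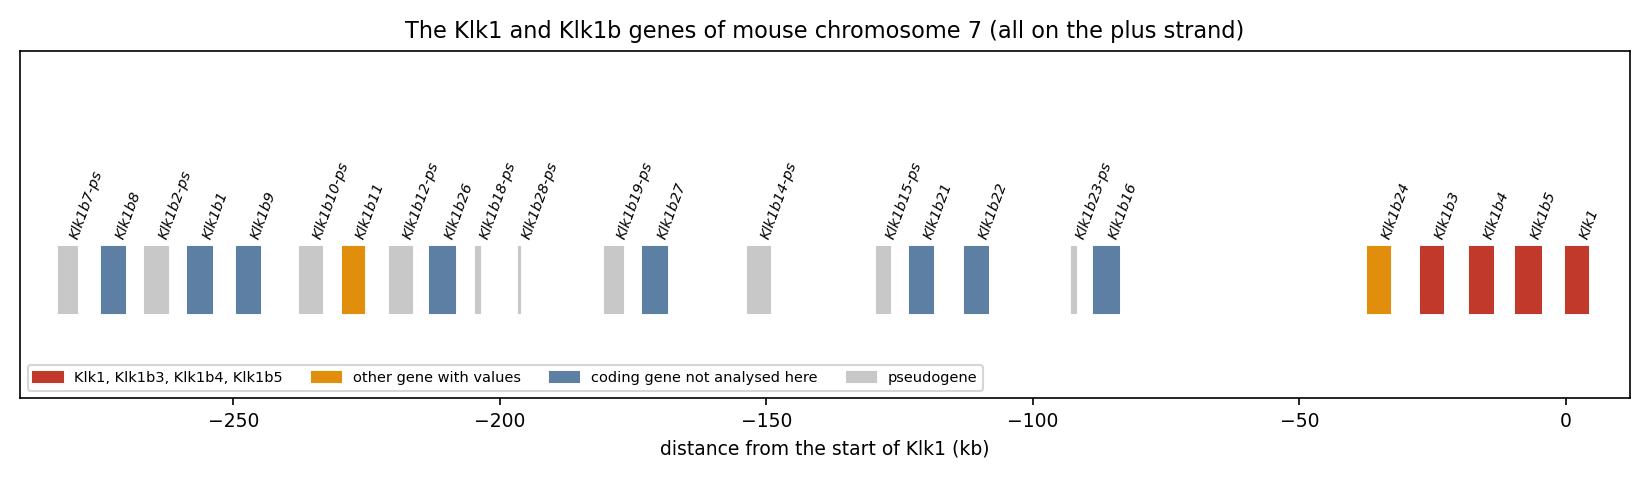
Map of the Klk1 and Klk1b genes, with the distance from the start of Klk1 in kb on the horizontal axis and each gene drawn as a box to scale. The 4 genes Klk1b3, Klk1b4, Klk1b5 and Klk1 sit side by side at the right end within 31.4 kb, next to Klk1b24, while Klk1b11 lies further away.

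The copies share long stretches of sequence, so a short read can match more than 1 of them. The coding sequence of Klk1 was 95.2% identical to that of Klk1b5 (38 of 786 bases differed), 90.3% to Klk1b4 and 88.5% to Klk1b3. Klk1b3 and Klk1b4 were 88.8% identical to each other. The coding stretches below, 60 bases each and within a single exon, show both extremes among 453 such stretches, with capitals marking the bases that differ from Klk1. The first set, from exon 3, is the least variable stretch, where 1 of 60 positions varied among the 4 genes (Klk1 at chr7:44228740-44228799, Klk1b3 at chr7:44201464-44201523, Klk1b4 at chr7:44210867-44210926 and Klk1b5 at chr7:44219822-44219881).
Klk1 exon 3: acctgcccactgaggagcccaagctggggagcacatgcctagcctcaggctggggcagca
Klk1b3 exon 3: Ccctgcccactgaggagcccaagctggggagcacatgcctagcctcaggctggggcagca
Klk1b4 exon 3: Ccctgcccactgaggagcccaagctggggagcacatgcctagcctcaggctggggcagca
Klk1b5 exon 3: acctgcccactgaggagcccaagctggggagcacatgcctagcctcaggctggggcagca
The second set, from exon 5, is the most variable stretch, where 26 of 60 positions varied (Klk1 at chr7:44229475-44229534, Klk1b3 at chr7:44202211-44202270, Klk1b4 at chr7:44211611-44211670 and Klk1b5 at chr7:44220560-44220619). Klk1b3 and Klk1b4 each differed from Klk1 at 19 of these positions and Klk1b5 at 8.
Klk1 exon 5: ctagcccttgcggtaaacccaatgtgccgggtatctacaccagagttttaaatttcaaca
Klk1b3 exon 5: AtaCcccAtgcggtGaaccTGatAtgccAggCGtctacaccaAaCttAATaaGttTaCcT
Klk1b4 exon 5: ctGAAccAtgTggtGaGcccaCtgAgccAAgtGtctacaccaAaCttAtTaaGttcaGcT
Klk1b5 exon 5: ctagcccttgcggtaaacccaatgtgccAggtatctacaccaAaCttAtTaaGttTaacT

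Reads were 150 bases long and paired. In the main transcripts of the 4 genes, 0 windows of 150 bases were found letter for letter in a transcript of any other gene. At 100 bases 6.08% of the windows of Klk1 and 5.26% of those of Klk1b5 were shared, including 48 windows that these genes had in common, against 2.7% for Klk1b4 and 0 for Klk1b3. At 50 bases the shared part was 28.4% of Klk1, 21.3% of Klk1b3, 21.3% of Klk1b4 and 17.1% of Klk1b5. Of the 24 deposited values of the 4 genes, 6 were not whole numbers, 3 of them in Klk1, 2 in Klk1b5 and 1 in Klk1b3. They came in pairs within a library. In knockout 12 the pair was Klk1 at 37542.93 and Klk1b5 at 749.07. In knockout 13 it was Klk1 at 28537.99 and Klk1b3 at 31.01, and in floxed 19 Klk1 at 8668.98 and Klk1b5 at 123.02. The decimals of each pair add to a whole number, and the values of Klk1b4 were all whole. Non-whole values occurred in 12.8% of all genes. How far shared reads were split between Klk1 and the far weaker copies was not tested, so the values of the 3 Klk1b genes are uncertain.

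Klk1 was the main kallikrein mRNA in every library. Its deposited counts were 26079, 37542.93 and 28537.99 in knockout 11, 12 and 13, against 12694, 4257 and 8668.98 in floxed 8, 18 and 19. After scaling these were 1489, 1905 and 1588 CPM in the knockout islets and 734, 204.4 and 441.3 CPM in the floxed islets. The groups did not overlap, and knockout 11, the lowest of its group, was 2.03-fold above floxed 8. Klk1 averaged 1661 ± 217 CPM across knockout islets and 460 ± 265 CPM across floxed islets (SD, n = 3 each), with a fitted log2 fold change of 1.85 (SE 0.43). The floxed mice differed among themselves by 3.59-fold, more than the 1.28-fold range of the knockout mice. By mean CPM over all libraries it ranked 53 among the 11106 genes, and by mean CPM in floxed islets 92. In bulk islets fewer cells of a type and less RNA per cell cannot be told apart.

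Klk1b5, the closest copy, stood far lower. It had 403, 749.07 and 380 deposited counts in knockout 11, 12 and 13, against 254, 38 and 123.02 in floxed 8, 18 and 19. This gave 23.0, 38.0 and 21.1 CPM in the knockout islets and 14.7, 1.82 and 6.26 CPM in the floxed islets. No floxed library reached the lowest knockout library, but floxed 8 came within 1.44-fold of it. The means were 27.4 ± 9.25 CPM across knockout islets and 7.59 ± 6.53 CPM across floxed islets (SD, n = 3 each), with a fitted log2 fold change of 1.88 (SE 0.71).

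Klk1b4, the next copy by level, had 110, 242 and 64 counts in knockout 11, 12 and 13, against 33, 8 and 17 in floxed 8, 18 and 19. In CPM these were 6.28, 12.3 and 3.56 in the knockout islets and 1.91, 0.384 and 0.865 in the floxed islets. The groups did not overlap. The mean was 7.37 ± 4.46 CPM across knockout islets and 1.05 ± 0.779 CPM across floxed islets (SD, n = 3 each), and the log2 fold change was 2.85 (SE 0.67).

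Klk1b3 was the weakest of the 4 and rests on few reads in the floxed mice. Its counts were 45, 111 and 31.01 in knockout 11, 12 and 13, against 11, 1 and 9 in floxed 8, 18 and 19. These came to 2.57, 5.63 and 1.73 CPM in the knockout islets and 0.636, 0.0480 and 0.458 CPM in the floxed islets, again with no overlap. The mean was 3.31 ± 2.06 CPM across knockout islets and 0.381 ± 0.302 CPM across floxed islets (SD, n = 3 each). The log2 fold change was 3.15 (SE 0.69), the largest of the 4, against a floxed total of 21 counts. All 4 genes passed the filter on low counts. Klk1b3 reached the minimum of 10 counts in 3 knockout libraries and in floxed 8 only, so it passed the filter through the group where it was high.

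**Figure D2:**
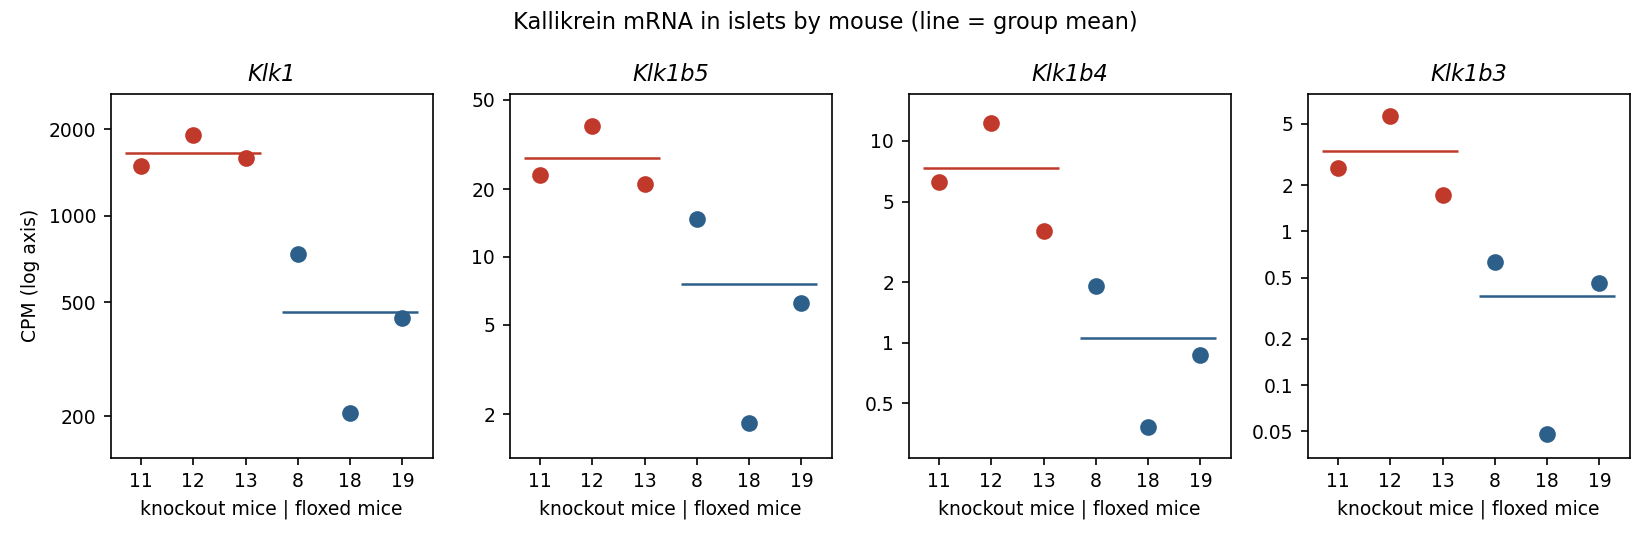
CPM of the 4 kallikreins on a log axis, each panel with its own scale, with 1 point per mouse, knockout mice in red at the left and floxed mice in blue at the right, and a line at each group mean. In every panel the 3 knockout points lie above the 3 floxed points, knockout 12 is the highest of all 6 and floxed 18 is the lowest.

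The order of the mice was nearly the same in all 4 genes. Knockout 12 was the highest and floxed 18 the lowest in each, and floxed 8 was the highest floxed mouse in each. Knockout 11 stood above knockout 13 in the 3 Klk1b genes and below it in Klk1. Groups did not overlap in 4 of the 4 genes, with knockout higher, while 14.1% of the 11080 genes tested did the same. With the edgeR quasi-likelihood test over all genes 0 of the 4 were called at an adjusted p below 0.05, where 0.343% of all genes were called higher. DESeq2 called 3 of the 4, where it called 3.87% of all genes higher, and limma-voom called 0, where it called 0.361% higher. Without floxed 8 edgeR called 1 of the 4, where 8.59% of all genes were called higher. At an unadjusted p below 0.05 edgeR passed all 4, where 17.9% of all genes passed. The genes were chosen on this contrast, so these counts describe the choice and support nothing.

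Klk1 made up nearly the whole of the kallikrein signal. It held 97.9%, 97.2% and 98.4% of the summed counts of the 4 genes in knockout 11, 12 and 13, and 97.7%, 98.9% and 98.3% in floxed 8, 18 and 19. Per kilobase of coding sequence, Klk1 stood at 2113 ± 277 CPM across knockout islets and 585 ± 338 CPM across floxed islets (SD, n = 3 each). On this scale Klk1b5 was at 34.8 ± 11.8 in knockout and 9.66 ± 8.31 in floxed islets, Klk1b4 at 9.57 ± 5.79 in knockout and 1.37 ± 1.01 in floxed islets, and Klk1b3 at 4.21 ± 2.62 in knockout and 0.484 ± 0.384 in floxed islets. The order Klk1, Klk1b5, Klk1b4, Klk1b3 held in all 6 libraries. In mean level per coding kilobase, Klk1 exceeded Klk1b5 by 60.65-fold in knockout and 60.58-fold in floxed islets. It exceeded Klk1b4 by 221-fold in knockout and 429-fold in floxed islets, and Klk1b3 by 502-fold in knockout and 1208-fold in floxed islets.

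The weaker copies did not follow Klk1 in a fixed ratio. Klk1b4 was 0.420%, 0.640% and 0.224% of its own and the Klk1 counts together in knockout 11, 12 and 13, against 0.259%, 0.188% and 0.196% in floxed 8, 18 and 19. The exact (Clopper-Pearson) 95% interval was 0.563 to 0.726% in knockout 12 and 0.172 to 0.286% in knockout 13, so these 2 mice of one group differed by more than counting error, which is all that such intervals cover. Knockout 13 lay within the range of the floxed mice. For Klk1b5 the ratios overlapped between the groups, with 1.52%, 1.96% and 1.31% in the knockout mice and 1.96%, 0.885% and 1.4% in the floxed mice. For Klk1b3 they were 0.172%, 0.295% and 0.109% in the knockout mice, against 0.0866%, 0.0235% and 0.104% in the floxed mice. The interval for floxed 18, from 0.000595 to 0.131%, covers the other 2 floxed values.

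The other 2 copies with values showed the same high mouse at lower counts. Klk1b11 had 17, 73 and 13 counts in knockout 11, 12 and 13, against 9, 1 and 13 in floxed 8, 18 and 19. Its log2 fold change was 2.16 (SE 0.87), and it did not pass (edgeR quasi-likelihood test, adjusted p = 0.258). Klk1b24 had 13, 34 and 10 counts in the knockout mice, against 3, 4 and 5 in the floxed mice, too few to enter the test. Knockout 12 was again the highest library in both genes.

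Markers of acinar cells, the pancreatic source of Klk1, were set beside these values. The 26 acinar markers measured, which exclude the kallikreins, together held 14.25%, 15.59% and 19.86% of the scaled counts in knockout 11, 12 and 13, against 9.48%, 2.69% and 5.66% in floxed 8, 18 and 19. All 26 had positive log2 fold changes, with a median of 1.52, while the median of all genes tested was -0.00292. In 24 of the 26 the groups did not overlap with knockout higher, as in 14.1% of all genes, the exceptions being Amy2b, an amylase, and Bhlha15, the acinar transcription factor MIST1. The edgeR test called 0 of the 26 over all genes, where 0.406% of all genes were called in either direction. At an unadjusted p below 0.05 the count was 24, beside 17.9% of all genes. DESeq2 called 17, beside 5.09% of all genes, and limma-voom 1, beside 0.406%. Without floxed 8 edgeR called 20, beside 14.3% of all genes. Ptf1a and Rbpjl, the genes of 2 subunits of the acinar transcription complex PTF1, stood at 13.4 ± 6.76 and 37.9 ± 9.59 CPM across knockout islets and at 2.09 ± 1.09 and 7.79 ± 3.90 CPM across floxed islets (SD, n = 3 each). Their log2 fold changes were 2.699 and 2.297, while Bhlha15 was at 0.04.

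Set against the summed acinar markers, the groups lay closer. Klk1 had 10.45, 12.22 and 8.00 counts per 1000 acinar marker counts in knockout 11, 12 and 13, against 7.74, 7.60 and 7.80 in floxed 8, 18 and 19. The floxed mice were nearly level, although their acinar sums differed 3.52-fold, and knockout 13 stood just above them. The means were 10.2 ± 2.12 in knockout and 7.71 ± 0.105 across floxed islets (SD, n = 3 each). On the log2 scale the group means of this ratio differed by 0.38. The fitted log2 fold change of Klk1 in CPM was 1.85, which is a different measure.

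The Klk1b genes overlapped more once set against the acinar sum. Klk1b5 had 0.162, 0.244 and 0.107 counts per 1000 acinar marker counts in knockout 11, 12 and 13, against 0.155, 0.0678 and 0.111 in floxed 8, 18 and 19, and the groups overlapped. Klk1b4 overlapped as well, through knockout 13 at 0.0179 and floxed 8 at 0.0201, while knockout 12 was at 0.0788. Klk1b3 did not overlap, with 0.00869 in knockout 13 against 0.00810 in floxed 19, a difference that rests on 31.01 and 9 counts. On the log2 scale the mean ratios differed by 0.62 for Klk1b5, 1.27 for Klk1b4 and 1.96 for Klk1b3. With the mean acinar level as a covariate in the edgeR fit, the log2 fold changes were 0.24 for Klk1, 0.84 for Klk1b3, 1.002 for Klk1b4 and -0.55 for Klk1b5. The acinar level moves with the groups, and its part in the kallikrein values was not tested beyond these ratios and this fit.

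**Figure D3:**
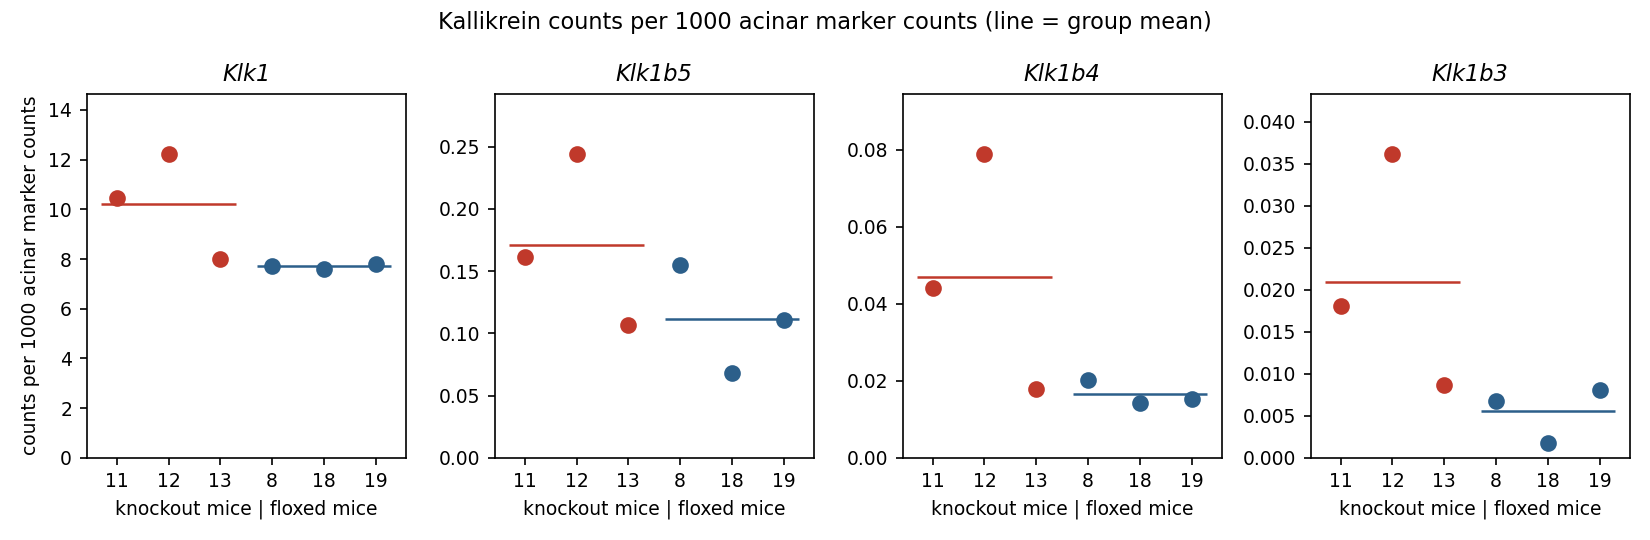
Counts of each kallikrein per 1000 counts of the 26 acinar markers, on linear axes that start at 0, with 1 point per mouse, knockout mice in red at the left, floxed mice in blue at the right, and a line at each group mean. For Klk1 the knockout points lie between 8.00 and 12.22 and the floxed points together between 7.60 and 7.80, and in all 4 panels knockout 12 is highest.

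Markers of other cell types and immediate early genes were compared in the same way. Of the 8 ductal markers measured, 7 had positive values (median log2 fold change 1.05) and 0 were called by edgeR (0.406% of all genes). Of the 8, 6 passed at an unadjusted p below 0.05 (17.9% of all genes), DESeq2 called 4 (5.09%) and limma-voom 0 (0.406%). Without floxed 8 edgeR called 5 (14.3%). Together they held 0.0978 to 0.115% of the scaled counts in knockout mice and 0.0510 to 0.0817% in floxed mice. The 13 immediate early and heat shock genes all had positive values (median 1.69), of which edgeR called 1 (0.406% of all genes), and held 1.68 to 1.94% of the scaled counts in knockout mice and 0.2 to 1.27% in floxed mice. They averaged 9.19, 9.19 and 9.29 on the log2 CPM scale in knockout 11, 12 and 13, against 8.67, 6.06 and 6.09 in floxed 8, 18 and 19, so floxed 8 was the highest floxed mouse here, as it was in Klk1. The gene called was Fosl2, of the AP-1 family (log2 fold change 1.80, edgeR adjusted p = 0.0239). Its call ended with the acinar covariate and without knockout 11 or knockout 13, settings in which 0 of all genes were called. It also ended without knockout 12, where 8 of all genes were called, and without floxed 18, where 18 were. Without floxed 8 all 13 immediate early and heat shock genes were called, beside 14.3% of all genes. The 15 endothelial markers had negative values throughout (median -0.286, 0 called by edgeR, 8 at an unadjusted p below 0.05, beside 17.9% of all genes). Of 7 macrophage markers 0 were called (0 at an unadjusted p below 0.05), and their mean was 4.17 log2 CPM in knockout 12, the mouse with the most kallikrein, and 2.33 to 2.99 in the other 5. The 13 beta cell markers had a median of -0.19, with 1 at an unadjusted p below 0.05, and the 9 alpha, delta and PP cell markers one of -0.213, with 0, and edgeR called 0 in both. The part of these markers in the kallikrein values was not tested.

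The genes whose pattern over the 6 libraries was closest to Klk1 included genes of the exocrine pancreas. Closeness was measured as the root mean square distance between log2 CPM profiles, each centred on its own mean, over 11030 genes with a mean of at least 1 CPM. The spread of Klk1 itself on this scale was 1.15. The nearest gene was Aqp12, a water channel of acinar cells, at a distance of 0.0997, followed by the lipase family gene Pnliprp1 at 0.105. Next came the mucin gene Muc1, one of the ductal markers, at 0.123. The trypsinogen gene Try10 followed at 0.132 and Ptger4, a prostaglandin E2 receptor gene, at 0.153. Pnliprp1 had 4212, 6302 and 4820 CPM in mice 11, 12 and 13 of the knockout group, against 1910, 597 and 1327 CPM in mice 8, 18 and 19 of the floxed group, the same order of mice as Klk1. Among the 50 genes nearest to Klk1, 13 were acinar markers, of 26 such markers that could have been. Ductal markers among them were not counted.

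The weaker copies had more distant neighbours. For Klk1b5, whose own spread was 1.43, they were Spink1 (0.274), which encodes an inhibitor of trypsin, Muc1 (0.293), Ptger4 (0.298), the glutamine transporter gene Slc38a3 (0.358) and Try10 (0.362). For Klk1b4, with a spread of 1.58, they were the matrix gene Ccn1 (0.338), Ptf1a (0.351), the stress-induced cytokine gene Gdf15 (0.355), Rbpjl (0.415) and the homeobox gene Tgif1 (0.421). For Klk1b3, with a spread of 1.69, they were Gdf15 (0.341), Ptf1a (0.390), Rbpjl (0.487), Slc38a3 (0.488) and the keratin gene Krt23 (0.489). Gdf15 had 3.77, 7.87 and 1.45 CPM in mice 11, 12 and 13 of the knockout group, against 1.16, 0.144 and 0.814 CPM in mice 8, 18 and 19 of the floxed group, which like Klk1b3 peaked in knockout 12 and was lowest in floxed 18. Acinar markers made up 10, 6 and 9 of the 50 genes nearest to Klk1b5, Klk1b4 and Klk1b3. These profiles share libraries and depth. Ranked by Pearson correlation instead, 1 of these 5 neighbours was kept for Klk1b5, 0 for Klk1b4 and 0 for Klk1b3, and 2 of the 5 were kept for Klk1.

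**Figure D4:**
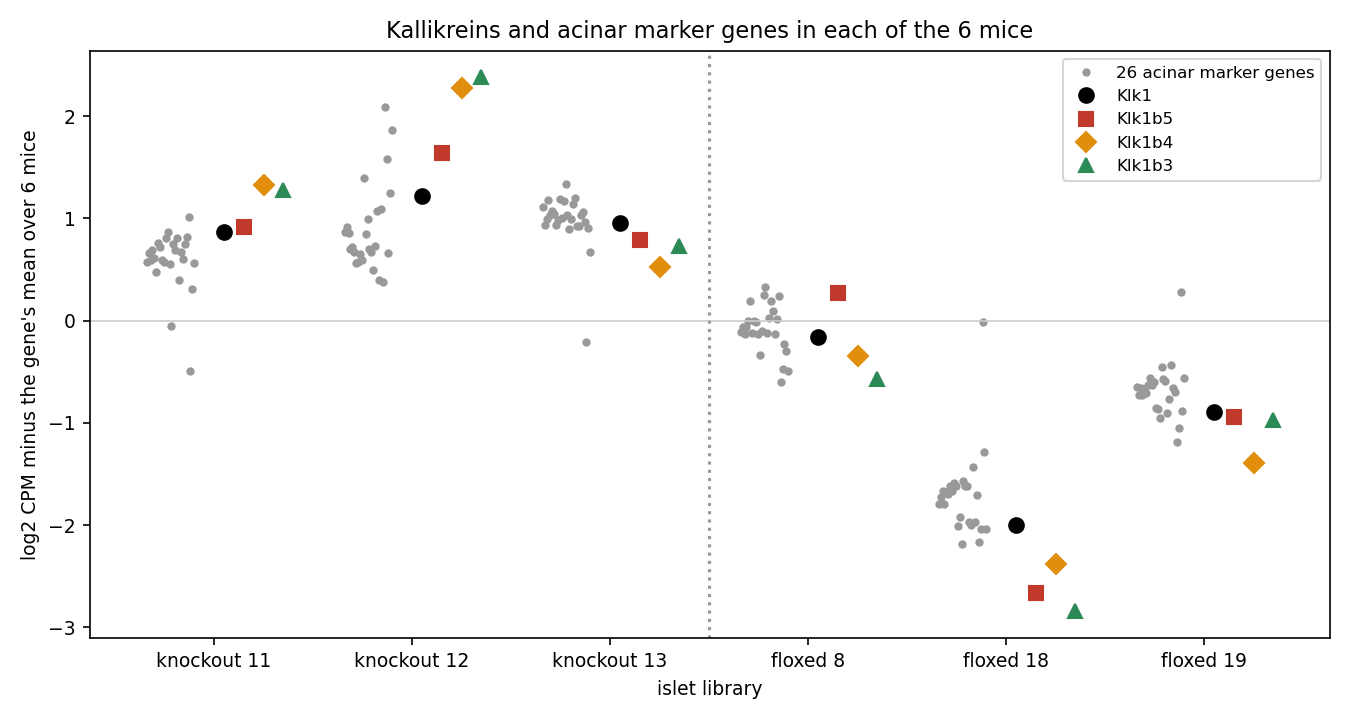
Log2 CPM of the 4 kallikreins (large symbols) and of the 26 acinar marker genes (grey points) in each library, each gene set relative to its own mean over the 6 mice, knockout libraries at the left of the dotted line and floxed libraries at the right. Klk1 lies within the range of the acinar markers in every library, while Klk1b3 and Klk1b4 lie above all 26 in knockout 12, and Klk1b3, Klk1b4 and Klk1b5 lie below all 26 in floxed 18.

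The sequences just before the annotated starts of the kallikrein genes are shown because these 4 genes had nearly the same order of mice in the counts. RefSeq promoter sequence (GRCm38.p6) was found for all 4 genes, and the 250 bases before the start were searched on both strands for 3 motifs of 6 letters. TGGGAA is the core bound by the RBPJ family, to which Rbpjl belongs, CACCTG is an E-box of the kind bound by basic helix-loop-helix factors such as Ptf1a, and TTTAAA is a TATA-like sequence. Capitals mark these motifs on either strand, so CACCTG also appears as CAGGTG. The windows were chr7:44225110-44225359 for Klk1, chr7:44197941-44198190 for Klk1b3 and chr7:44207183-44207432 for Klk1b4, all on the plus strand.
Klk1: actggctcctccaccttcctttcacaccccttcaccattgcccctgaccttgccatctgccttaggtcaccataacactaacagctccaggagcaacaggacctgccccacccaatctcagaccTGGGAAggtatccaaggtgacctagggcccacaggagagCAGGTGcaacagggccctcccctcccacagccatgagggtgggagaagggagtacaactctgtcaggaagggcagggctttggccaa
Klk1b3: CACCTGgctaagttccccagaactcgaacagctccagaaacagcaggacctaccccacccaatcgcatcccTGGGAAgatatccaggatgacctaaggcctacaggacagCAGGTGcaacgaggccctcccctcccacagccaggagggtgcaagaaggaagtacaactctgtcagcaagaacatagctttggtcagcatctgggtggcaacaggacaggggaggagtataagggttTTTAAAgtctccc
Klk1b4: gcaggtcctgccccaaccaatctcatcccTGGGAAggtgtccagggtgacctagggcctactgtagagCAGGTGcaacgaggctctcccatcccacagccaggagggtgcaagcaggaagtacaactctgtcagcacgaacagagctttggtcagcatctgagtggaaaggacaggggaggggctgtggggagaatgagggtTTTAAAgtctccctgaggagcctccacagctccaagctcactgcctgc

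All 4 windows held TGGGAA and CAGGTG, 39 bases apart from first letter to first letter in each. The window of Klk1b5 was searched but is not shown, since its 250 bases lie inside the first exon of the longer GENCODE transcript. TTTAAA was found in 3 of the 4, at -13 in Klk1b3, -48 in Klk1b4 and -42 in Klk1b5, counted from the RefSeq start. It was not among the letters of the Klk1 window. That window ends sooner after TGGGAA, which lay at -126 in Klk1, against -179 in Klk1b3, -221 in Klk1b4 and -218 in Klk1b5. The bases after each start were not searched, so whether Klk1 holds TTTAAA in the matching place was not tested. Of 32851 promoter windows of the same length, 21.6% held TGGGAA, 17.2% held CACCTG, 12.1% held TTTAAA and 3.91% held both of the first 2. Across the 14 coding Klk1 and Klk1b genes, TGGGAA was found in 13, TTTAAA in 12 and CACCTG in 6. Klk1b8 and Klk1b22, which had no values here, also held both TGGGAA and CACCTG, the latter as CAGGTG. They lay at -220 and -181 in Klk1b8 and at -216 and -177 in Klk1b22, again 39 bases apart. The spacing is thus not particular to the 4 genes, and its share among all promoter windows was not counted. Of the other copies with values, Klk1b11 held neither, and Klk1b24 held TGGGAA without CACCTG. The copies descend from one sequence, so their shared letters are not independent matches, and a match is not evidence of binding. By distance, Ptf1a and Rbpjl were among the 5 nearest genes of Klk1b3 and Klk1b4, but not of Klk1 or Klk1b5. Control of the kallikreins by either factor was not tested.

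Genes on either side of kallikrein in the kinin pathway were counted next. Of the 40 genes listed as kininogens, kinin receptors, kinin peptidases, protease inhibitors and growth factor partners, 23 were measured and tested. Of these 1, Serpini2, a serine protease inhibitor of the pancreas, rose in knockout islets and 0 fell (edgeR quasi-likelihood, adjusted p below 0.05), beside 0.343% of all genes called higher and 0.0632% called lower. The median log2 fold change of the 23 was 0.02. None of the 4 genes listed as kininogens, plasma kallikrein and coagulation factor XII had values here, nor did Bdkrb1, and these were not analysed.

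Bdkrb2, the constitutive bradykinin receptor, was the one kinin receptor measured. It had 4.83 ± 0.970 CPM across knockout islets and 4.43 ± 1.78 CPM across floxed islets (SD, n = 3 each), with a fitted log2 fold change of 0.12 (SE 0.30; edgeR adjusted p = 0.877). Of the 11 peptidases that trim or destroy kinins, 4 had positive and 7 negative values (median -0.0762), and edgeR called 0, with 1 at an unadjusted p below 0.05, beside 17.9% of all genes. That gene, Dpp4, which removes N-terminal dipeptides, stood at 31.4 ± 0.652 CPM across knockout and 38.1 ± 2.35 CPM across floxed islets (SD, n = 3 each; log2 fold change -0.28, edgeR adjusted p = 0.147). Ace, the angiotensin-converting enzyme that also destroys bradykinin, had a log2 fold change of -0.27 (SE 0.21), and Ece1, which can also cleave it, one of -0.10 with 0.15. Without floxed 8 edgeR called Ace (log2 fold change -0.496, adjusted p = 0.00719) and Dpp4 (-0.333, adjusted p = 0.0199) lower, beside 14.3% of all genes called in either direction.

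Among the 5 protease inhibitors measured, 2 had groups that did not overlap with knockout higher, beside 14.1% of all genes. Serpini2 was at 71.1 ± 11.1 CPM across knockout and 14.6 ± 3.97 CPM across floxed islets (SD, n = 3 each), with a fitted log2 fold change of 2.29 (SE 0.20; edgeR adjusted p = 0.00963). Its call ended with the acinar covariate, without knockout 11 and without knockout 13, settings in which 0 of all genes were called. Spink1 had 41.8, 57.8 and 45.0 CPM in mice 11, 12 and 13 of the knockout group, against 30.2, 5.33 and 14.2 CPM in mice 8, 18 and 19 of the floxed group, with no overlap (log2 fold change 1.55, SE 0.61, edgeR adjusted p = 0.279). Serping1, the C1 inhibitor that also blocks plasma kallikrein, had a log2 fold change of 0.03, and Spint1 and Spint2, inhibitors of membrane serine proteases, had -0.02 and 5.3e-05.

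Growth factor and receptor genes linked to the kallikreins were compared last. Egf, the epidermal growth factor gene, had a log2 fold change of 0.02 and its receptor gene Egfr one of 0.01, and neither passed (edgeR adjusted p = 0.9496 for Egf and 0.990 for Egfr). F2rl1, the gene of the protease-activated receptor PAR2 that trypsin-like proteases switch on, stood at 16.0 ± 1.27 CPM across knockout and 10.01 ± 1.67 CPM across floxed islets (SD, n = 3 each) with no overlap. Its log2 fold change was 0.67 (SE 0.14), and it did not pass over all genes (edgeR adjusted p = 0.0717). It passed with DESeq2 (adjusted p = 0.00787), beside 5.09% of all genes, and without floxed 8 with edgeR (adjusted p = 0.0159), beside 14.3%.

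**Figure D5:**
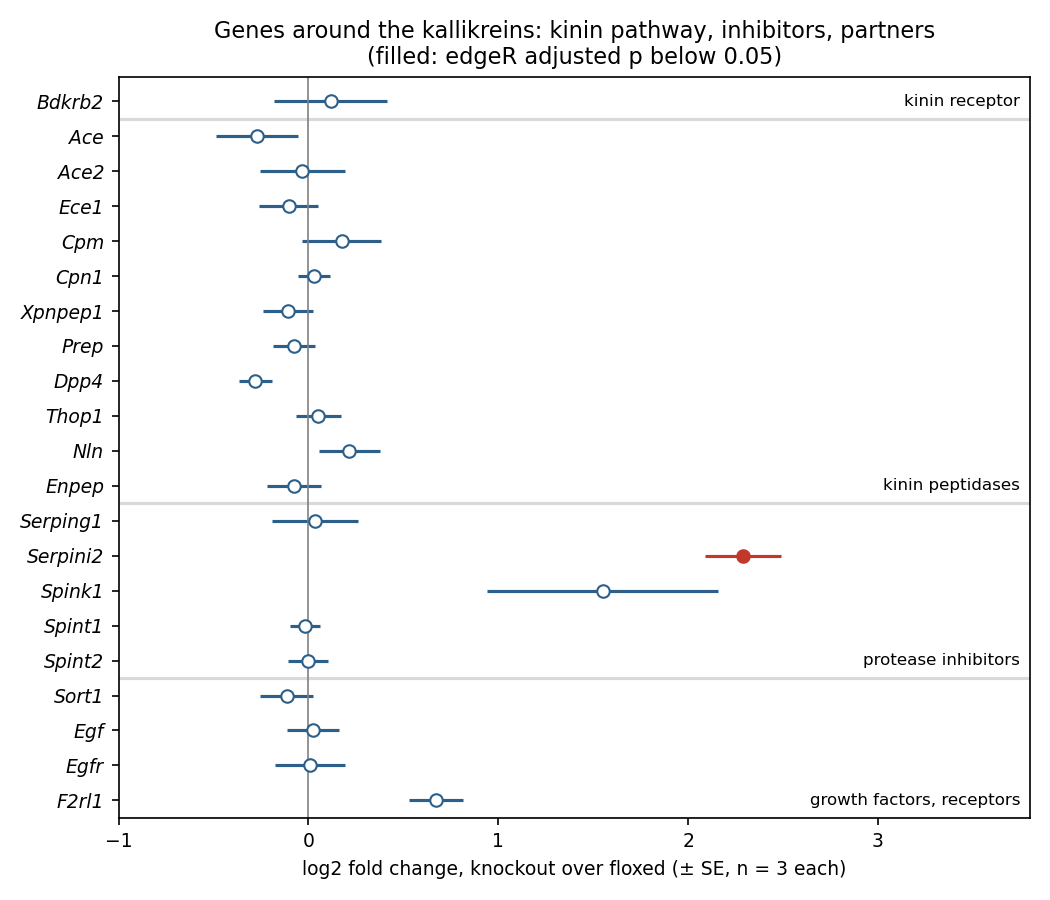
Log2 fold change, knockout over floxed, of measured genes around the kallikreins, with bars of 1 standard error (n = 3 each) and filled points for an edgeR adjusted p below 0.05. Serpini2 at 2.29 is the filled point, Spink1 at 1.55 and F2rl1 at 0.67 lie to the right of 0, and the other genes shown lie between -0.28 and 0.22.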

How the data were processed

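RNA-seq libraries of islets from 6 mice were compared, 3 knockout and 3 floxed. The values the authors deposited are estimated counts without normalization. The tools were fastp, HISAT2 and StringTie with the mm10 build, per the submitters' processing notes, whereas versions, annotation, counting rule and strand use were not given in the sources used here. Total counts ran from 18470720 to 18957444. After rounding to integers, filterByExpr (minimum count 10, minimum total 15) kept 11080 genes, and libraries were scaled by TMM (factors 0.924 to 1.11). The test was edgeR 4.0.16 quasi-likelihood with robust dispersion (R 4.3.3), no covariate, Benjamini-Hochberg adjustment and a threshold of 0.05. Standard errors come from the F statistic, and log2 CPM carry a prior count of 2. DESeq2 1.42.0 and limma 3.58.1 were alternatives. Of the rows, 11090 matched a RefSeq gene table by Entrez identifier. Coding sequences were read from GENCODE M21 transcripts. Per-sample columns of other samples numbered 0. The members and gene lists were chosen with earlier results of these data known. The text names the 4 kallikreins, the 2 other copies with values, list members past the threshold or, at most 4 a list, with the smallest p, Ern1 and 4 acinar markers, and the 5 genes nearest to each kallikrein. In places other genes were named after their values were seen. They are Amy2a5, Amy2b, Fosl2 and list members outside that rule (Ece1, Serping1, Spint1, Spint2, Egf and Egfr among them). On data simulated from this comparison (11079 genes tested), the test recovered 86 of 100 genes with a log2 change of 1 and 97 of 100 with one of 2. Of 197 called genes, 14 had not been changed. Each gene was simulated independently of the others, and the changed genes were drawn at random. The spread that acinar genes share between mice was not modelled, so these recoveries need not hold for acinar markers or kallikreins. Some list members are counted but not reported here by name.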

Additional observations from a re-analysis of the deposited data

How the results depend on the processing

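No paired analysis was possible because the groups share no replicate numbers and no litter or batch is given. The 4 kallikreins kept a positive log2 fold change under RLE scaling, library totals, both other filters, DESeq2, limma-voom, the fit without robust dispersion, counts rounded down, TMM without acinar and kallikrein genes, and each left-out library, and moved by less than 1 SD between replicates under each of these. The acinar covariate moved them to 0.241 (Klk1), 0.837 (Klk1b3), 1.002 (Klk1b4) and -0.551 (Klk1b5, reversed) and their sum to 0.233, against 1.86 without it. With single libraries left out the range was 1.499 to 2.36 for Klk1, 2.52 to 3.71 for Klk1b3, 2.26 to 3.56 for Klk1b4, 1.398 to 2.77 for Klk1b5 and 1.501 to 2.37 for the sum. The count of 45 genes called was 564 with DESeq2, 0 with the acinar covariate, and 0 to 1584 with libraries left out (0 without knockout 11 or knockout 13, 8 without knockout 12, 16 without floxed 19, 18 without floxed 18, 1584 without floxed 8), and the cause was not tested. Of the 23 pathway and partner genes tested, those called were 2 with DESeq2, 0 with the acinar covariate, and 0 to 4 with libraries left out (0 without knockout 11 or 13, 4 without floxed 8). Acinar markers called were 17 with DESeq2, 1 with limma-voom, 1 without robust dispersion, and 0 to 20 with libraries left out (20 without floxed 8). Ductal markers called were 4 with DESeq2 and 0 to 5 with libraries left out (2 without floxed 19, 5 without floxed 8). Beside these list counts, DESeq2 called 5.09% of all genes, limma-voom 0.406%, and edgeR without floxed 8 called 14.3%. Ranked by Pearson correlation, which ignores the size of a change, 2, 0, 0 and 1 of the 5 nearest genes of Klk1, Klk1b3, Klk1b4 and Klk1b5 were shared with the ranking by distance, and with a prior count of 0.5 the number was 3 for Klk1b3. Low counts limit Klk1b3 and Klk1b4 in the floxed mice.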
